A study of Mus musculus with 16 samples.

Results

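The 8 genes described here encode sodium-proton exchangers (Slc9a2, Slc9a5, Slc9a7, Slc9a8, and Slc9a9) and subunits of amiloride-sensitive sodium channels (Asic1, Asic3, and Scnn1a). They were chosen by symbol from the 21923 genes of a count table of mouse gastrocnemius, a calf muscle, and all 8 had enough reads to be tested in every comparison. Poly(A) RNA was sequenced from 16 adult mice, 1 library per mouse, in 4 groups of 4. The tumor-free NOR mice were given PBS where the others were given tumor cells, and then intraperitoneal PBS every day from day 9. CAC mice carried subcutaneous tumors and received the same daily PBS. AM mice carried the same tumors and received amiloride, a potassium-sparing diuretic, at 2 mg/kg daily from day 9. KD mice carried tumors grown from cells with shRNA against Rab27, with daily PBS, so that the knock-down is in the tumor cells and the mouse's own Rab27 genes in the muscle do not check it. Muscles of all groups were taken on day 30. Replicates 1 and 2 of a group carry the label C57BL/6, the hosts of LLC lung carcinoma cells, and replicates 3 and 4 a BALB/c label, the hosts of CT26 colon carcinoma cells, so strain and tumor line cannot be told apart. The labels' protocol gives males for C57BL/6 and both sexes for BALB/c, while the study's methods give males.

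Sodium-proton exchangers let sodium in and push protons out, or acidify and de-acidify organelles, and so set the pH of the cytosol and of vesicles. Slc9a2 works at the plasma membrane, mainly of epithelia, where amiloride can block it. Slc9a5 is best known from brain, Slc9a7 and Slc9a8 from the Golgi apparatus, and Slc9a9 from recycling endosomes. Asic1 and Asic3 form sodium channels that open when the fluid outside the cell becomes acidic, Asic3 above all in sensory neurons. Scnn1a is the alpha subunit of the epithelial sodium channel, which amiloride blocks in the kidney and which normally joins the subunits Scnn1b and Scnn1g. The comparisons ask how the RNA of these potential amiloride targets stood in cachectic muscle, and whether it differed after amiloride treatment or with Rab27 knock-down tumors.

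The libraries held 35913190 to 61032708 counts in total. Skeletal muscle fibre markers were high in every library, at 111493 to 170033 CPM in sum in NOR, 53671 to 118734 in CAC, 105325 to 131111 in AM, and 89870 to 149086 in KD, with none of the 6 passing the test in CAC vs. NOR (CPM being counts scaled to library size, here by TMM). CAC replicate 4, AM replicates 1 and 3, and KD replicate 1 shared an expression pattern that cut across the strain labels, with Gm10260 at 163 to 312 CPM against 0.887 to 1.90 CPM in the others. NOR replicate 1, CAC replicates 1 and 4, and KD replicates 2 and 3 had low lymphocyte markers, at 0.453 to 4.10 CPM in sum against 35.5 to 423 CPM. No gene of 15220 differed between the labelled strains by edgeR with the group in the fit, with 1.63% at an unadjusted p under 0.05 and 18 genes by DESeq2. By edgeR no gene told the labelled strains apart, whether the strain labels are right was not tested, and every value by labelled strain below depends on them. Values without these libraries are given beside the calls and some other values.

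Levels between genes were compared per length, as the authors' FPKM values. Slc9a8 was the highest of the 8, with a median of 13.6 FPKM and a range of 4.54 to 17.4 over the 16 libraries. Slc9a2 followed at 8.74 (5.02 to 16.9), Slc9a7 at 2.87 (1.55 to 5.57), and Slc9a9 at 1.69 (0.20 to 3.18). Asic1 had a median of 0.825 (0.35 to 1.59), Slc9a5 0.655 (0.38 to 0.80), Asic3 0.37 (0.11 to 1.19), and Scnn1a 0.305 (0.12 to 0.86). The ranges of all neighbours in this order overlapped. In reads, Asic3 and Scnn1a rested on 8 to 123 and 16 to 93 counts per library, so that counting alone gives an error of 18.6% and 15.1% at their median counts, against 2.13% for Slc9a8.

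**Figure D1:**
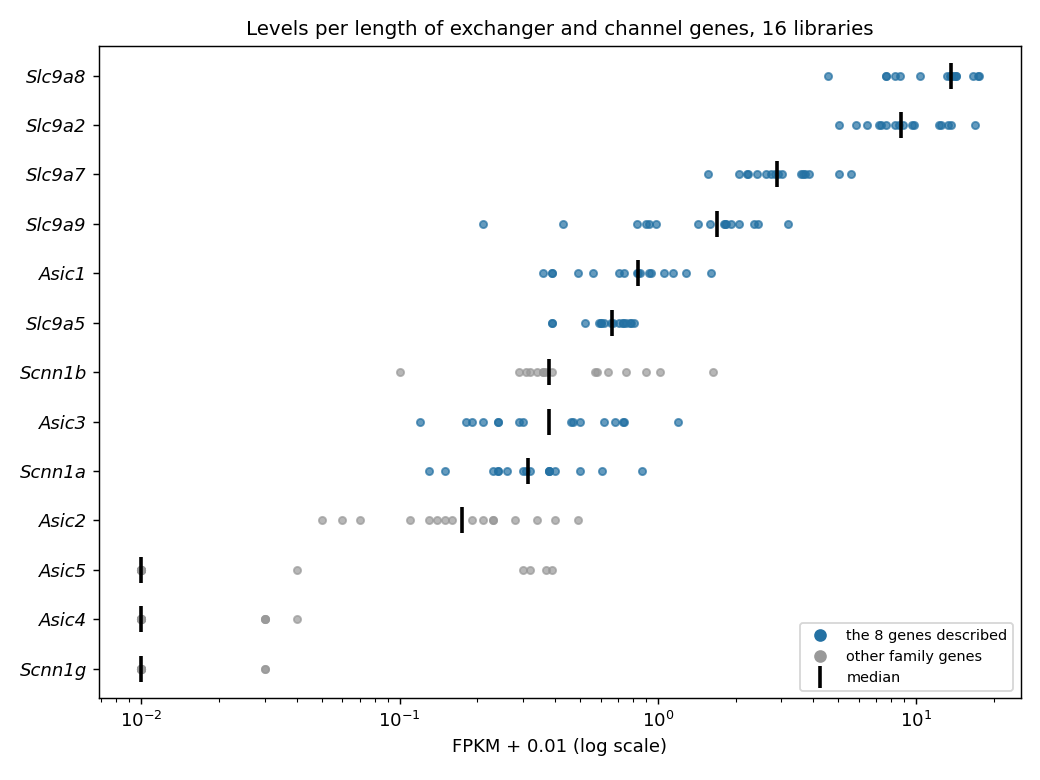
FPKM (plus 0.01, log scale) of the 8 genes (blue) and the other acid-sensing and epithelial channel genes (grey) in each of the 16 libraries, with the median as a bar. Slc9a8 and Slc9a2 lie at the top, at medians of 13.6 and 8.74 FPKM, while Asic3 and Scnn1a lie below 1.2 FPKM in every library.

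In CAC vs. NOR, Slc9a2 fell and Asic3 rose, so 2 of the 8 genes passed the test, which asks for an FDR (false discovery rate over all genes) within 0.05 together with a 1.5-fold rise or a fall to 0.667 or less. Of all 14666 genes tested, 9.45% passed, 4.32% higher and 5.13% lower. Without 1 mouse the share of all genes that passed was 4.91% to 8.57%. In 3 of the 8 genes (Slc9a2, Asic3, and Scnn1a) no CAC mouse overlapped with a NOR mouse, against 22.8% of all genes, and 4 of the 8 had an unadjusted p under 0.05, against 29.1%. The median log2 fold change of the 8 genes was -0.03, and that of all genes was 0.01. In AM vs. CAC, 1 of the 8 genes passed, Slc9a9, which was higher in AM, against 3.66% of all genes (1.63% higher). This gene was also the only one of the 8 without overlap, against 15.7% of all genes. An unadjusted p under 0.05 was found for 2 of the 8, against 21.7%, and the medians were 0.09 for the 8 genes and 0.01 for all. In KD vs. CAC, none of the 8 passed by edgeR or limma-voom and 0.00685% of all genes did (1 of 14593), while 1 of the 8 had an unadjusted p under 0.05 (11.1% of all genes) and DESeq2, which called 2.15% of all genes, called the same gene, Slc9a2. It did not overlap between KD and CAC, against 7.00% of all genes, and the medians were -0.20 for the 8 genes and 0.00 for all. These comparisons share the 4 CAC mice, so a value that stands out in CAC enters all of them.

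**Figure D2:**
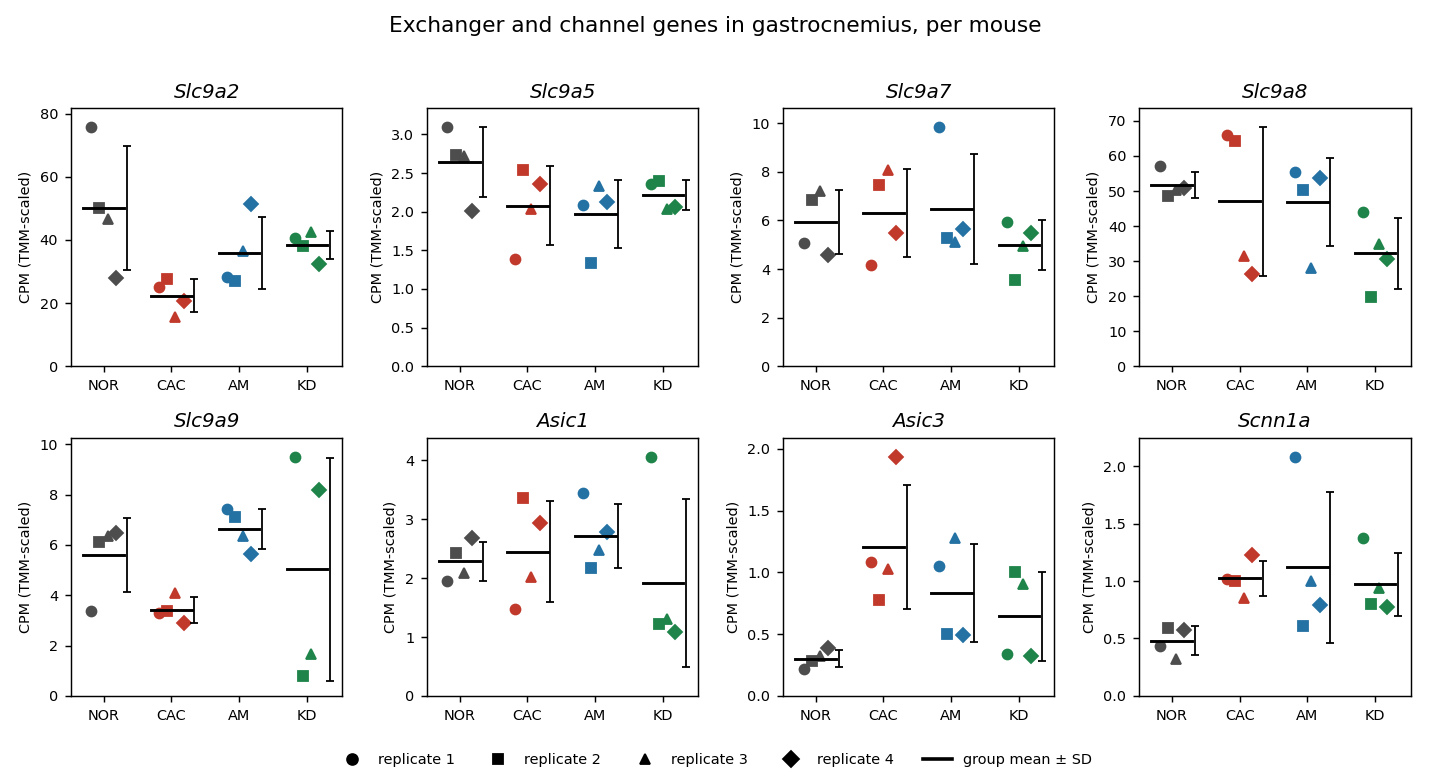
CPM (TMM-scaled) of each of the 8 genes in each mouse, by group, with symbols for replicates 1 to 4, a line for the group mean and a bar for 1 SD (n = 4). Slc9a2 is lowest in CAC, Asic3 is lowest in NOR, Scnn1a is above every NOR mouse in all 12 tumor-bearing mice, by 0.613 against 0.595 CPM at the closest, and Slc9a9 splits the KD mice into 2 low and 2 high ones.

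**Figure D3:**
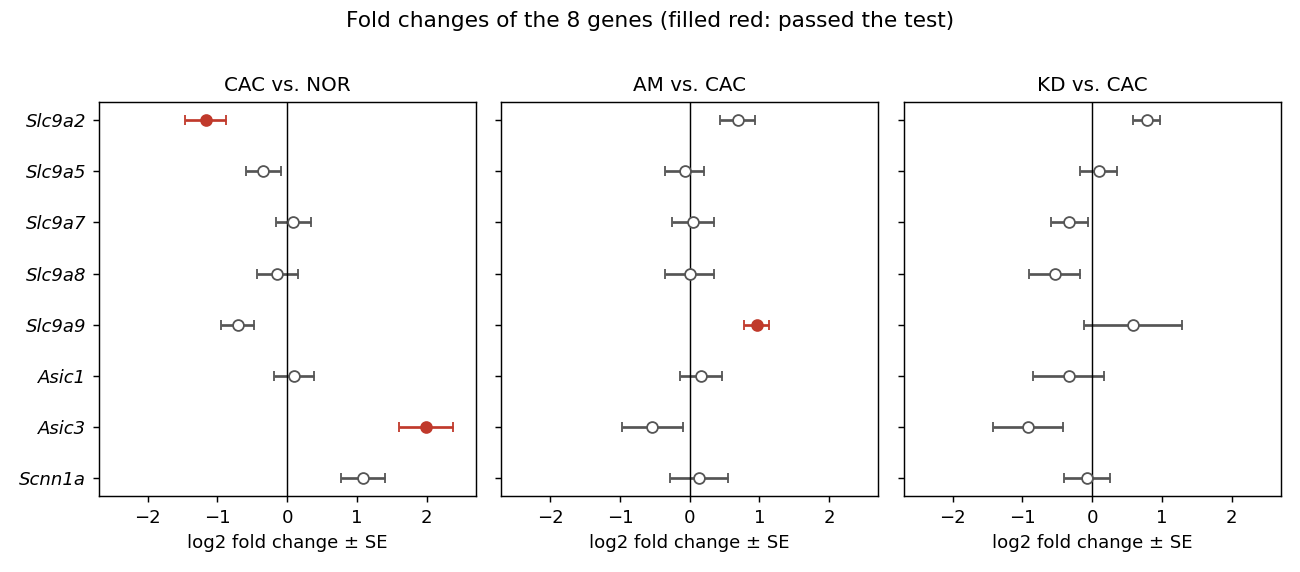
Log2 fold changes with their standard errors in the comparisons that involve CAC, from edgeR on 4 against 4 libraries. Filled red points passed the test: Slc9a2 (-1.17) and Asic3 (1.99) in CAC vs. NOR and Slc9a9 (0.96) in AM vs. CAC.

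Slc9a2 (ENSMUSG00000026062, chromosome 1, 40680574 to 40769273, plus strand of GRCm38, in the GENCODE M21 annotation) was measured at 75.6, 50.3, 46.7, and 28.0 CPM in NOR replicates 1 to 4. CAC mice had 25.2, 27.6, 15.7, and 20.7 CPM, AM mice 28.3, 27.0, 36.6, and 51.5 CPM, and KD mice 40.5, 38.1, 42.4, and 32.5 CPM. Every CAC mouse was below every NOR and every KD mouse, while AM replicate 2 lay below CAC replicate 2, the highest CAC mouse. The gap between CAC replicate 2 (27.6 CPM, 1241 counts) and NOR replicate 4 (28.0 CPM, 1657 counts) was within counting error. Slc9a2 fell in CAC vs. NOR by 1.17 on the log2 scale (SE 0.296, FDR = 0.0347), from 50.1 ± 19.6 to 22.3 ± 5.24 CPM (SD, n = 4). AM differed from CAC by 0.69 (SE 0.249, FDR = 0.153), and by 0.07 in labelled C57BL/6 mice alone against 1.27 in labelled BALB/c mice alone. KD differed from CAC by 0.78 (SE 0.189, FDR = 0.267). With DESeq2 the KD vs. CAC value had an FDR of 0.0198. The fall in CAC vs. NOR was near the limit. CAC replicates 3 and 4, the mice with the least Slc9a2, also had the lowest fibre marker sums (53671 and 77680 CPM), and the part of fibre content was not tested. Without NOR replicate 1, 2, or 3, or CAC replicate 1, 3, or 4, the FDR was 0.0635 to 0.0823 and the log2 fold change -1.23 to -0.90. In the labelled C57BL/6 mice alone it was -1.20 (FDR = 0.0728) and in the labelled BALB/c mice alone -1.04 (FDR = 0.238). Without the 4-library pattern, which removes CAC replicate 4, it was -1.13 (FDR = 0.0746), and without the 5 libraries with low lymphocyte markers -0.94 (FDR = 0.175).

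Slc9a9 (ENSMUSG00000031129, chromosome 9, 94669909 to 95230445, plus strand) was measured at 3.39, 6.11, 6.37, and 6.48 CPM in NOR mice and at 3.29, 3.38, 4.09, and 2.89 CPM in CAC mice. AM mice had 7.43, 7.10, 6.33, and 5.65 CPM. The KD mice had 9.49, 0.80, 1.68, and 8.16 CPM, so KD held both the highest and the lowest values of the series. Every AM mouse was above every CAC mouse. Slc9a9 rose in AM vs. CAC by 0.96 on the log2 scale (SE 0.176, FDR = 0.0224), from 3.41 ± 0.499 to 6.63 ± 0.800 CPM (SD, n = 4). In CAC vs. NOR the value was -0.71 (SE 0.236, FDR = 0.0804), NOR replicate 1 lying among the CAC mice. Without NOR replicate 1 it was -0.89 and passed (FDR = 0.0235). In KD vs. CAC it was 0.58 with an SE of 0.697 (FDR = 0.833), ranging from 0.06 to 0.94 without 1 mouse, and it was 1.25 without the low-lymphocyte libraries (FDR = 0.202) and -0.0098 without the 4-library pattern (FDR = 0.998).

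The level of Slc9a9 went along with immune cell markers in part of the libraries. Macrophage markers summed to 98.7 and 218 CPM in KD replicates 3 and 2 and 205 CPM in NOR replicate 1, where Slc9a9 was low, and to 844 and 687 CPM in KD replicates 1 and 4, where it was high. All 7 macrophage markers were detected in every library. The macrophage sums of CAC mice (454 to 732 CPM) and AM mice (419 to 641 CPM) overlapped, while their Slc9a9 levels did not. None of the 7 macrophage or 8 lymphocyte markers passed the test in CAC vs. NOR or AM vs. CAC, although lymphocyte sums ranged from 1.93 to 310 CPM in CAC and from 35.5 to 423 CPM in AM. With the lymphocyte sum as a covariate, the value for AM vs. CAC was 0.84 (FDR = 0.0527), and without the low-lymphocyte libraries, which leaves 2 CAC mice, 0.83 (FDR = 0.149). Fibroblast and tendon markers moved in the same directions as Slc9a9. Their sum was 1539 to 1969 CPM in NOR, 727 to 1193 in CAC, 1259 to 1747 in AM, and 562 to 1758 in KD, so CAC overlapped with neither NOR nor AM, and KD replicates 2 and 3 (732 and 562 CPM) were again below replicates 1 and 4 (1563 and 1758 CPM). Of these 5 markers, 2 were lower in CAC vs. NOR and 2 higher in AM vs. CAC, whereas NOR replicate 1, with low Slc9a9, had the highest sum. Schwann cell and axon markers were also higher in all AM mice (399 to 741 CPM) than in all CAC mice (203 to 383 CPM), with none of 7 passing. In KD the Schwann cell and axon sums were 411 and 769 CPM in replicates 2 and 3, with low Slc9a9, against 314 and 366 CPM in replicates 1 and 4. Satellite cell markers (56.1 to 82.7 CPM in CAC, 38.6 to 52.1 CPM in AM, 1 of 4 lower) and denervated muscle markers (86.7 to 154 CPM in CAC, 59.7 to 86.2 CPM in AM, none of 6 passing) were lower in all AM mice. The part of any of these cell types in the result was not tested. In bulk muscle, fewer cells of a type and less RNA per cell cannot be told apart. The rise missed the limit when scaled by total counts (FDR = 0.0598), with all 16 libraries in 1 fit (FDR = 0.370), and with the replicate number as a block (FDR = 0.155), under which 0 of all genes passed. It also missed the limit without CAC replicate 1 or 2 or AM replicate 1, 2, or 3, with an FDR of 0.0549 to 0.0711 and a log2 fold change of 0.90 to 0.99. Without the 4-library pattern, which leaves 3 CAC and 2 AM mice, it was 0.83 (FDR = 0.200), in labelled C57BL/6 mice 1.13 (FDR = 0.176), and in labelled BALB/c mice 0.77 (FDR = 0.414).

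**Figure D4:**
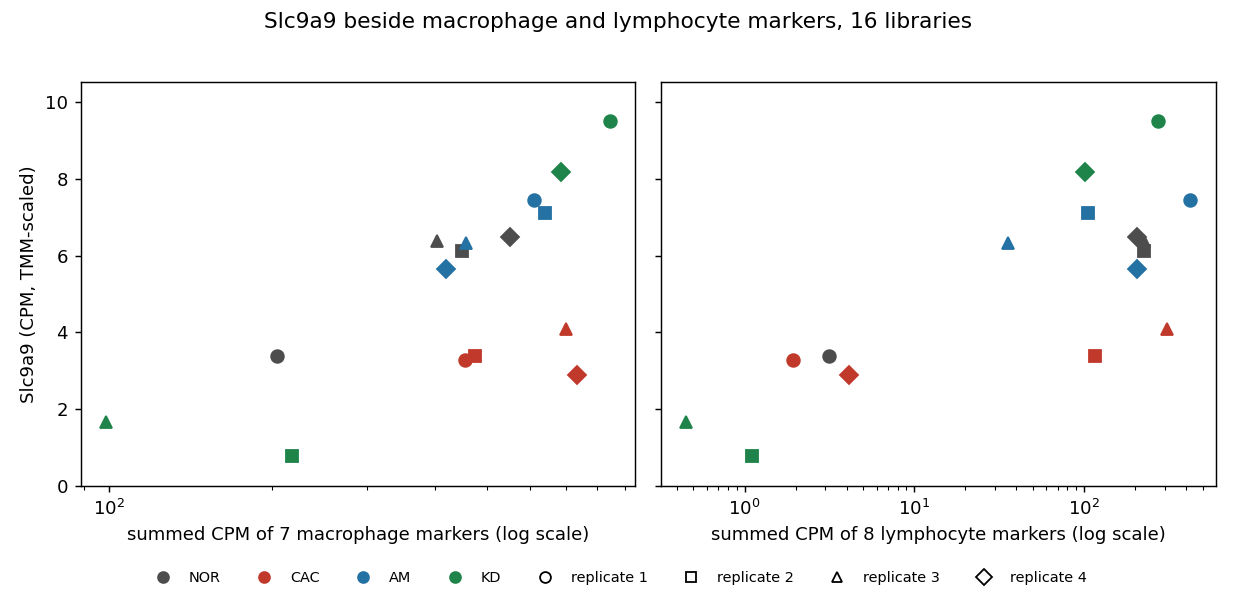
Slc9a9 (CPM, TMM-scaled) against the summed CPM of 7 macrophage markers (left) and 8 lymphocyte markers (right, both log scale) in the 16 libraries, by group and replicate. The KD mice hold the 2 lowest and the 2 highest Slc9a9 levels, and the 4 CAC mice lie at 2.89 to 4.09 CPM although their macrophage sums are 454 to 732 CPM.

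Slc9a8 (ENSMUSG00000039463, chromosome 2, 167421712 to 167477000, plus strand) was measured at 57.3, 48.6, 50.4, and 50.8 CPM in NOR mice and at 66.1, 64.3, 31.4, and 26.2 CPM in CAC mice. AM mice had 55.4, 50.2, 28.2, and 53.8 CPM, and KD mice 44.1, 19.7, 34.9, and 30.6 CPM. The CAC mice labelled C57BL/6 were above, and those labelled BALB/c below, every NOR mouse. In TMM-scaled CPM all KD mice were below all NOR mice, but in FPKM KD replicate 1 (13.96) lay within the NOR range (13.16 to 14.2). The log2 fold change in KD vs. NOR was -0.67 (SE 0.221, FDR = 0.999). Slc9a7 (ENSMUSG00000037341, chromosome X, 20105754 to 20291807, minus strand) ranged from 4.57 to 7.23 CPM in NOR, 4.15 to 8.09 in CAC, 5.10 to 9.83 in AM, and 3.55 to 5.95 in KD. Slc9a5 (ENSMUSG00000014786, chromosome 8, 105348843 to 105369881, plus strand) ranged from 2.01 to 3.09 CPM in NOR, 1.38 to 2.53 in CAC, 1.34 to 2.34 in AM, and 2.04 to 2.40 in KD. The groups overlapped for both, and neither passed the test in any comparison.

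Asic3 (ENSMUSG00000038276, chromosome 5, 24413392 to 24417835, plus strand) was measured at 0.217, 0.281, 0.320, and 0.388 CPM in NOR mice and at 1.09, 0.778, 1.03, and 1.93 CPM in CAC mice. AM mice had 1.05, 0.501, 1.28, and 0.490 CPM. KD mice had 0.343, 1.00, 0.906, and 0.326 CPM. All CAC and AM mice were above all NOR mice, whereas KD replicates 1 and 4 lay within the NOR range. Asic3 rose in CAC vs. NOR by 1.99 on the log2 scale, a 3.96-fold change (SE 0.384, FDR = 0.0142), from 0.301 ± 0.0717 to 1.21 ± 0.503 CPM (SD, n = 4). The rise passed without any 1 of the 8 mice (1.66 to 2.14, FDR = 0.0191 to 0.0493), and without the 4-library pattern, which removes CAC replicate 4, it was 1.66 (FDR = 0.0262). Without the low-lymphocyte libraries, which leaves 3 NOR and 2 CAC mice, it was 1.45 (FDR = 0.124). In labelled C57BL/6 mice alone it was 1.92 (FDR = 0.152) and in labelled BALB/c mice alone 2.05 (FDR = 0.206). Relative to CAC mice, Asic3 stood at -0.54 in AM mice (SE 0.440, FDR = 0.539), and at -0.80 to -0.21 without 1 mouse, the value nearest 0 being that without CAC replicate 4. In KD mice it stood at -0.92 relative to CAC (SE 0.505, FDR = 0.543), and at -0.59 without CAC replicate 4.

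Several marker lists moved with the same comparison. Neutrophil markers summed to 3.70 to 29.1 CPM in NOR and 91.7 to 220.0 CPM in CAC, without overlap, and 3 of the 5 were higher. In AM they summed to 12.9 to 192 CPM and in KD to 11.9 to 289 CPM, where KD replicate 3, with more Asic3, had the lowest sum. Of 4 satellite cell and 4 endothelial markers, 1 each was higher, and 2 of 5 fibroblast and tendon markers were lower. The sum of denervated muscle markers was 58.9 to 82.5 CPM in NOR, 86.7 to 154 in CAC, 59.7 to 86.2 in AM, and 65.4 to 117 in KD, where replicates 2 and 3, the KD mice with more Asic3, had 117 and 102 CPM. In AM, replicates 1 and 3, the mice with more Asic3, had 59.7 and 86.2 CPM, the lowest and the highest AM sum. Of the 6 markers tested in CAC vs. NOR, 2 were higher. Schwann cell and axon markers, which would mark nerve within the muscle, summed to 316 to 373 CPM in NOR and 203 to 383 CPM in CAC, and none of the 7 tested passed. The axon gene Nefl was at 0 in 8 libraries. The part of innervation or of these cell types in the result was not tested. Asic1 (ENSMUSG00000023017, chromosome 15, 99670368 to 99701130, plus strand) ranged from 1.95 to 2.68 CPM in NOR, 1.47 to 3.36 in CAC, 2.17 to 3.45 in AM, and 1.09 to 4.06 in KD. It passed in no comparison and its groups overlapped.

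Scnn1a (ENSMUSG00000030340, chromosome 6, 125320659 to 125344943, plus strand) was measured at 0.434, 0.595, 0.320, and 0.574 CPM in NOR mice and at 1.02, 1.00, 0.856, and 1.23 CPM in CAC mice. AM mice had 2.08, 0.613, 0.999, and 0.788 CPM, and KD mice 1.37, 0.800, 0.944, and 0.778 CPM. In TMM-scaled CPM all 12 tumor-bearing mice were above all 4 NOR mice, but the gap between AM replicate 2 (0.613 CPM, 22 counts) and NOR replicate 2 (0.595 CPM, 36 counts) was within counting error, and both had 0.23 FPKM. Mean levels were 0.481 ± 0.129 CPM in NOR and 1.03 ± 0.152 CPM in CAC (SD, n = 4), which differed by 1.09 on the log2 scale (SE 0.311, FDR = 0.0517), just outside the limit. It passed with DESeq2 (FDR = 0.0172) and when scaled by total counts (FDR = 0.0453). Without the 4-library pattern, which removes CAC replicate 4, it was 0.99 (FDR = 0.103). AM differed from CAC by 0.14 (SE 0.415, FDR = 0.892), and without AM replicate 1 by -0.35. KD differed from CAC by -0.07 (SE 0.329, FDR = 0.976).

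Of the partners of Scnn1a, Scnn1b had a median of 0.37 FPKM over the 16 libraries, against 0.305 for Scnn1a. Scnn1b was measured at 0.405 to 0.650 CPM in NOR mice and 0.419 to 2.47 CPM in CAC mice, a log2 fold change of 1.39 (SE 0.527, FDR = 0.119). This value was 0.52 to 1.70 over 23 alternatives, and it passed in 1 of them. Scnn1g was at 0 in 14 libraries and had at most 3 counts in the others. Epithelial markers summed to 3.51 to 6.50 CPM in NOR, 2.61 to 6.76 in CAC, 5.75 to 11.1 in AM, and 4.67 to 18.5 in KD, and none of the 4 tested passed in CAC vs. NOR. Krt5 was at 0 in 12 libraries and Krt14 in 15. The part of epithelial cells in the level of Scnn1a was not tested.

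Against NOR, amiloride-treated and KD mice differed in none of the 8 genes by edgeR, DESeq2, or limma-voom, and 0% of all genes passed in either comparison by edgeR (78 genes by DESeq2 in AM vs. NOR and 38 in KD vs. NOR). An unadjusted p under 0.05 was found for 2 of the 8 genes in AM vs. NOR, where 9.19% of all genes had one, and for 2 in KD vs. NOR, where 3.54% had one. AM mice differed from NOR mice by 1.46 in Asic3 (SE 0.435, FDR = 0.518) and by 1.23 in Scnn1a (SE 0.451, FDR = 0.531), on the log2 scale. These were the 2 genes without overlap, against 4.71% of all genes. Without the 4-library pattern, which leaves 2 AM mice, the values were 0.72 and 0.56 (FDR = 0.989 for both), and without AM replicate 1 alone Scnn1a was at 0.73. In KD vs. NOR the 2 genes without overlap, against 2.16% of all, were Slc9a8, described above, and Scnn1a at 1.02 (SE 0.373, FDR = 0.999), while Asic3 was at 1.07 (SE 0.506, FDR = 0.999). Without the low-lymphocyte libraries, which leaves KD replicates 1 and 4, Asic3 was at 0.0337 (FDR = 0.988). Slc9a2 was at -0.47 in AM vs. NOR (SE 0.299, FDR = 0.633) and -0.37 in KD vs. NOR (SE 0.250, FDR = 0.999). Without NOR replicate 1 these were -0.22 and -0.13, without AM replicate 4 the first was -0.69, and without NOR replicate 4 the second was -0.56. Slc9a9 was at 0.25 (SE 0.228, FDR = 0.734) in AM vs. NOR, and at 0.06 without NOR replicate 1. In KD vs. NOR it was at -0.13 (SE 0.708, FDR = 0.999), and at -0.65 to 0.22 without 1 mouse. In AM vs. KD none of the 8 had an unadjusted p under 0.05 (1.11% of all genes) or groups without overlap (0.929%), and none passed by edgeR, DESeq2, or limma-voom. Over all 4 groups in 1 fit, none of the 8 passed by edgeR (3 at an unadjusted p under 0.05, against 18.1% of all genes, of which 2.72% passed the FDR limit), with an FDR of 0.104 for Slc9a2 and 0.113 for Asic3, and DESeq2 called these 2 and 1674 of all 15255 genes it tested.

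The labelled strain was tested as an interaction with the group. None of the 8 genes passed by edgeR or limma-voom in CAC vs. NOR, AM vs. CAC, or KD vs. CAC, where 0% of all genes passed by edgeR, with 1, 1, and 0 of the 8 at an unadjusted p under 0.05, against 4.89%, 12.4%, and 5.65% of all genes. DESeq2 called Slc9a8 in CAC vs. NOR, where it called 0.715% of all genes, and Slc9a2 in AM vs. CAC, where it called 2.88%. For Slc9a8 the difference between the labelled strains' log2 fold changes in CAC vs. NOR (BALB/c minus C57BL/6) was -1.11 (SE 0.189, FDR = 0.481). For Slc9a2 in AM vs. CAC it was 1.20 (SE 0.314, FDR = 0.320), and the mice labelled BALB/c had 36.6 and 51.5 CPM in AM against 15.7 and 20.7 CPM in CAC, while those labelled C57BL/6 had 28.3 and 27.0 CPM against 25.2 and 27.6 CPM.

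Promoter sequences are shown for the 2 genes that passed a test and were matched in RefSeq's windows (GRCm38.p6, from 250 bases before to 50 after the start of the gene). Windows were matched for 6 of the 8 genes (Slc9a5, Slc9a7, Slc9a8, Slc9a9, Asic1, and Asic3). The Asic1 window began at base 99691974, inside the gene as GENCODE gives it (from 99670368). The first 250 bases of the Slc9a5 window ended at 105348257, before GENCODE's start at 105348843. The bases before the start are printed 5′ to 3′, and for Asic3 only those before GENCODE's start as well. Capitals mark matches to CANNTG, the E-box that MyoD-type muscle factors bind. The stretches are chr5:24413201-24413391 (plus strand) for Asic3 and chr9:94669642-94669891 (plus strand) for Slc9a9.
Asic3: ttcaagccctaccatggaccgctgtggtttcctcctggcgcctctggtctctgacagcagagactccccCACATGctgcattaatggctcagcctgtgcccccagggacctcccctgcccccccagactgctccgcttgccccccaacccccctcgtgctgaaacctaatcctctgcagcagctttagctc
Slc9a9: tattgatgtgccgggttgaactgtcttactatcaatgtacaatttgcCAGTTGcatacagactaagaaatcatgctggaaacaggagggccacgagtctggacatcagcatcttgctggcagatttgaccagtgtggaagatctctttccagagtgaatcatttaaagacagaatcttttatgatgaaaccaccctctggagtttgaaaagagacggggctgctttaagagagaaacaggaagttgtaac
The E-box letters were found once in the Asic3 window and 2 times in the Slc9a9 window, 1 of them after the start, and are held by 72.3% of the 32851 windows. The GC box GGGCGG was found 2 times in Slc9a5, 3 times in Slc9a7, and 2 times in Slc9a8, in neither printed gene, and in 35.7% of all windows. The Asic3 window was 62.0% G and C and the Slc9a9 window 43.7%, against a median of 52.7%. The other 6 motifs searched on both strands, TGTTTAC (FoxO), TTCNNNGAA (STAT), ACANNNTGT (glucocorticoid receptor), TTGCNNAA (C/EBP), TGACGTCA (CRE), and a MEF2 motif, were in none of the 6 windows and are held by 1.79% to 10.8% of all windows. These matches describe letters only. In the transcripts, no annotated exon of another gene overlapped the exons of the 8 genes, and at most 1.20% of a gene's 31-base words (Slc9a7) occurred in another gene, so few reads could be split between copies.

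Among other genes of the channel families and of acid and sodium transport, 39 were tested in CAC vs. NOR. Of them 5 passed, against 9.45% of all genes, and 14 had an unadjusted p under 0.05, against 29.1%. Of the 5 acid-sensing and epithelial channel relatives, 2 were tested (Asic2 and Scnn1b) and none passed, with 1 at an unadjusted p under 0.05.

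Of 10 tested regulators of the epithelial sodium channel, 1 was higher in CAC and none lower. Tsc22d3, a glucocorticoid-induced protein that raises channel activity in kidney, rose from 217 to 511 CPM, by 1.24 on the log2 scale (SE 0.303, FDR = 0.0312). Of 16 tested genes of other acid transport, 1 rose and 1 fell. Car4, a carbonic anhydrase on the cell surface, rose by 1.05 (SE 0.276, FDR = 0.0395), and Slc4a4, a sodium-bicarbonate cotransporter, fell by 0.74 (SE 0.116, FDR = 0.00718). Of 11 tested genes of other sodium transport, Slc12a2, the sodium-potassium-chloride cotransporter, rose by 1.32 (SE 0.191, FDR = 0.00553), and Atp1b2, a beta subunit of the sodium pump, fell by 1.47 (SE 0.310, FDR = 0.0191), from 351 to 127 CPM. The calls of Slc4a4 and Slc12a2 held without any 1 mouse. Tsc22d3 missed the limit without NOR replicate 1, 2, or 3 or CAC replicate 1 or 2 (1.06 to 1.19, FDR = 0.0754 to 0.0891) and was at 0.50 in labelled BALB/c mice alone. Car4 missed it without any 1 NOR mouse or CAC replicate 1 or 3 (0.99 to 1.16, FDR = 0.0538 to 0.107), and Atp1b2 without NOR replicate 3 (FDR = 0.0536). Without the low-lymphocyte libraries, of these 5 only Slc12a2 passed. No gene of these 4 lists passed in the edgeR fit used throughout in AM vs. CAC or KD vs. CAC, where 3.66% and 0.00685% of all genes did, and 7 of them had an unadjusted p under 0.05 in each, against 21.7% and 11.1% of all genes. In AM vs. CAC, Tsc22d3 was at -1.45 (SE 0.348, FDR = 0.0524), Slc12a2 at -0.95 (SE 0.233, FDR = 0.0540), and Atp1b2 at 1.14 (SE 0.329, FDR = 0.0872), each without overlap and each called by DESeq2. Tsc22d3 also passed with limma-voom, with total counts, and without AM replicate 4, and Slc12a2 with the 4-library pattern as a covariate. Over all alternatives the values were -2.31 to -0.65 for Tsc22d3, -1.13 to -0.59 for Slc12a2, and 0.46 to 1.90 for Atp1b2. Median log2 fold changes of the last 3 lists in CAC vs. NOR lay between -0.05 and 0.07, against 0.01 for all genes.

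Across the 16 libraries, the genes most like each of the 8 were sought by Pearson's r of log2 CPM among 13188 genes with a mean of at least 1 CPM. These values describe libraries that share groups, depth, and tissue makeup. Slc9a2 was most like Ank1 (r = 0.976), an ankyrin whose muscle form anchors the sarcoplasmic reticulum, then Cdc42ep2 (0.934) and Prkca (0.933). Slc9a9 was most like Mmp23 (0.961), Cd300ld3 (0.939), and the lysosomal enzyme gene Arsb (0.932). Asic3 was most like Inpp5k (0.929), Mfap1a (0.925), and Seh1l (0.923), and Scnn1a most like Aldh16a1 (0.878), Tgfbr3l (0.819), and Dnajc10 (0.816). For Slc9a7, r reached 0.853 (Tmem229b, then Smchd1 and Atrx), for Asic1 0.819 (Ssh1, then G2e3 and Rab30), for Slc9a8 0.767 (Itm2c, then Szrd1 and Asxl3), and for Slc9a5 0.753 (Tpgs2, then Ska2 and Timm8a1). Among the 8 genes themselves, Asic3 and Scnn1a ran together (r = 0.64 over 16 libraries) and Slc9a2 and Asic3 ran opposite (r = -0.65), and the other pairs lay between -0.45 and 0.54.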

How the data were processed

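Gastrocnemius RNA of 16 mice was sequenced after oligo(dT) enrichment. The authors deposited raw counts and FPKM values per gene in 1 table. The submitters' processing notes name fastp, Bowtie2, HISAT2, and StringTie 1.3.1, and the builds mm9 and GRCm38, while strandedness is not given in the sources used here. All 32 value columns were mapped to a mouse by title. Counts of libraries of 1 group differed beyond counting error (chi-square per degree of freedom of at least 61.8).

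Counts were analysed with edgeR 4.0.16 in R 4.3.3 (TMM scaling, low counts removed by filterByExpr at 10 per library and 15 in total, quasi-likelihood test), fitting the 8 libraries of each comparison, with Benjamini-Hochberg adjustment over all genes. NOISeq, the authors' tool, was not installed. The standard error is the log2 fold change divided by the root of F. CPM were TMM-scaled over all libraries, and log2 CPM used a prior count of 2. The test was tried on simulated counts first. Alternatives were limma-voom (limma 3.58.1), DESeq2 1.42.0, other scaling, no filter, covariates, blocks, and left-out libraries. The 8 genes and all lists were chosen with earlier results of these data known. Named are the 8 genes, their channel relatives, list genes that passed, and the 3 most alike genes of each, while other exchangers are not reported here. Mice were housed singly, and litters are not given in the sources used here. The p-values set the difference between groups against the spread between libraries within a group. Each group mixes both strain and tumor line labels, which the main fit leaves out.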

Additional observations from a re-analysis of the deposited data

Results flagged for a closer look

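In 32 checks of a gene in a group of 4 mice, 3 mice stood farther from the others than Dixon's limit for 4 values allows (chance gives about 1 in 20). They were KD replicate 1 for Asic1 at 4.06 CPM, where the group median was 1.26 CPM, AM replicate 1 for Slc9a7 at 9.83 CPM, where the median was 5.47 CPM, and NOR replicate 1 for Slc9a9 at 3.39 CPM, where the median was 6.24 CPM. KD replicate 1 and AM replicate 1 belong to the 4-library pattern and NOR replicate 1 to the low-lymphocyte libraries.

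Slc9a8 moved in opposite directions in the labelled strains in CAC vs. NOR, each CAC mouse labelled C57BL/6 lying above and each labelled BALB/c below the NOR mice of its label. The tested difference was -1.11 on the log2 scale (SE 0.189, FDR = 0.481 by edgeR), so it did not pass, while DESeq2 called it.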

How the results depend on the processing

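Of the 21 log2 fold changes given for the 8 genes, 15 kept their sign under all 24 alternatives each. In CAC vs. NOR the count of the 8 genes past the test (2) was 4 with DESeq2, which added Slc9a9 and Scnn1a and called 12.8% of all genes, 3 with total counts, which added Scnn1a and called 10.8%, 0 in either labelled strain alone, 1 without the 4-library pattern or with it as a covariate, 0 without the low-lymphocyte libraries, and 1 to 2 without 1 mouse. In AM vs. CAC the count of 1 became 0 with total counts (Slc9a9, FDR = 0.0598), the replicate block (0.155), all 16 libraries in 1 fit (0.370), either labelled strain alone, without the 4-library pattern, without the low-lymphocyte libraries, and with the lymphocyte level as a covariate, and was 0 to 1 without 1 mouse. DESeq2 found 1 gene in KD vs. CAC, 1 interaction each in CAC vs. NOR and AM vs. CAC, and 2 genes among the 4 groups, where leaving out 1 mouse gave 0 to 1 (Slc9a2 without NOR replicate 4). The alternatives with the 4-library pattern or the lymphocyte level were chosen after seeing the data.

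Signs turned for values that did not pass. Scnn1a in AM vs. CAC was -0.0039 with limma-voom, -0.0190 with the replicate block, -0.23 in labelled BALB/c mice, -0.45 without the 4-library pattern, -0.16 with it as a covariate, and -0.35 to 0.34 without 1 mouse. Scnn1a in KD vs. CAC was 0.13 in labelled C57BL/6 mice, 0.22 without the low-lymphocyte libraries, and -0.302 to 0.0296 without 1 mouse. Slc9a9 in KD vs. CAC was -0.0536 with the replicate block and -0.0098 without the 4-library pattern. Slc9a9 in KD vs. NOR was 0.16 in labelled C57BL/6 mice, 0.50 without the low-lymphocyte libraries, 0.0725 with the lymphocyte level as a covariate, and -0.65 to 0.22 without 1 mouse. In labelled BALB/c mice, Slc9a2 in AM vs. NOR was 0.22 and Slc9a9 in AM vs. NOR -0.12. The cause of these turns was not tested. Of 648 alternative values of the 27 fold changes not given, 69 had another sign and none passed. The 9 fold changes given for list genes kept their sign in all 207 alternative values, of which 29 lost and 8 gained a call.

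Same-numbered mice did not deviate together in every pair (correlations of -0.19 to 0.60 in CAC vs. NOR, -0.45 to 0.05 in AM vs. CAC, -0.64 to -0.25 in KD vs. CAC, and 0.0867 to 0.526 in AM vs. KD, the comparison where all 4 were positive, with 2 of them under 0.1), so the numbers were not taken as pairs. With the replicate block, 1140 of all genes passed in CAC vs. NOR against 1386 without it, and 0 against 537 in AM vs. CAC. Counts over all genes also differed with DESeq2 (1980 for CAC against NOR mice, 1131 in AM vs. CAC, 327 against 1 in KD vs. CAC) and, in AM vs. CAC, with the labelled strain as a covariate (339) or all 16 libraries in 1 fit (231). In KD vs. CAC that single fit gave 145. Without the low-lymphocyte libraries 398 passed in CAC vs. NOR and 18 in AM vs. CAC, and without the 4-library pattern 0 in AM vs. CAC. Total-count scaling moved the median of all genes to 0.14 in CAC vs. NOR, with 959 genes higher and 619 lower against 633 and 753, and to -0.11 in KD vs. CAC. In labelled C57BL/6 mice alone 247 passed in CAC vs. NOR. Asic3 and Scnn1a rest on few counts, with a counting error of 18.6% and 15.1%, while their spread between mice of a group was 23.8% to 55.8% and 14.9% to 58.9% (CV).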
